A study of Mus musculus with 32 samples.

Results

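Pools of parathyroid cells that contained Mki67 transcripts were compared with pools that contained almost none. Mki67 encodes Ki-67, a nuclear protein of proliferating cells. Each library was made from a pool of 10 to 20 cells that were picked by hand for fluorescence from a tdTomato reporter in Pth, the parathyroid hormone gene. In each library, reads on the 2 Mki67 transcripts were divided by all reads and multiplied by 1000000, a unit written RPM below (reads on a gene in every 1000000 reads of the library). A pool with 3 RPM of Mki67 or more was placed in the first class and a pool below 1 RPM in the second. The rule was applied to 24 of the 32 libraries of the series, those of the control and mouse-host arms. It put 7 pools in the first class and 17 in the second, and no pool lay between the thresholds. The 8 rat-host and graft libraries were outside the rule and are described separately.

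The 8 control libraries came from C57BL/6-Pthtm1(P2A-tdTomato)/+ mice, with 4 from experiment 1 (8 weeks old, labelled male) and 4 from experiment 2 (11 weeks old, labelled female). The 16 mouse-host libraries came from 4 experiments at 9 weeks, and held cells derived from Pth-tdTomato mouse embryonic stem cells that had complemented Gcm2-/- hosts of BDF1B6 background. Experiments 1 to 3 are labelled female and experiment 4 male. The rat-host libraries (neonate, sex labelled unknown) came from a Gcm2-/- Wistar rat complemented with the same kind of stem cells, and the graft libraries (12 weeks old, labelled male) from grafted stem-cell-derived cells of Gcm2-/- mice. Gcm2 encodes the transcription factor that the parathyroid gland needs to form. All groups carried the reporter, and every experiment had 4 libraries labelled as biological replicates. The labels do not say whether these came from separate animals, so p-values measure the spread between these libraries, which may be partly technical. Depth ranged from 29471254 to 32264864 reads for control experiment 1 and from 9470744 to 15098391 for the remaining 20 pools under the rule. At least 1 read fell on 11621 to 13458 genes. A pool is a bulk sample, so a larger number of cycling cells and more RNA per cycling cell cannot be told apart.

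A cell that divides passes through G1, replicates its DNA in S phase, prepares in G2 and separates its chromosomes in mitosis. Cyclins and their kinases drive the steps. Genes for origin licensing and nucleotide supply are transcribed around the start of S phase, and genes for the spindle, the kinetochore and chromosome condensation follow in G2 and mitosis. Adult parathyroid cells divide rarely, and the gland is known for growing when calcium is low for a long time or when tumour suppressors such as Men1, Cdc73 and Cdkn1b are lost. Ki-67 is absent from resting cells and is used as a marker of proliferation in any tissue.

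Many genes of G2 and mitosis are known to share a short promoter element, the cell cycle genes homology region (TTTGAA), often near a CCAAT box. The 250 bases before the start of transcription are shown for Mki67 and for 3 mitotic regulators, because the split rests on the first and the cyclin and kinase values below on the others. Ccnb2 encodes cyclin B2, Cdc20 the activator of the ubiquitin ligase that ends metaphase, and Cdk1 the kinase that starts mitosis. Sequences are from RefSeq (GRCm38.p6), 5′ to 3′ on the coding strand. Capitals mark both elements, read on either strand.
Mki67, chr7:135716380-135716629, minus strand: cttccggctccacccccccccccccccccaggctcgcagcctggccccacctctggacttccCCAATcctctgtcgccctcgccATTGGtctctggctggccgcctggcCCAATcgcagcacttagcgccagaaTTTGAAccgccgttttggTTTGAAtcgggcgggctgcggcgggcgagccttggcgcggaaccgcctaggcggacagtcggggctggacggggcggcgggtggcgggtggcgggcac
Ccnb2, chr9:70421555-70421804, minus strand: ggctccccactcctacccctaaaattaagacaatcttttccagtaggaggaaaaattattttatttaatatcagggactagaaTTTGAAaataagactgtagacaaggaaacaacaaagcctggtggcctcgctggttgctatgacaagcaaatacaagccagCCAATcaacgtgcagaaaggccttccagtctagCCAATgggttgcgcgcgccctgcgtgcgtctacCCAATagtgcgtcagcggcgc
Cdc20, chr4:118437344-118437593, minus strand: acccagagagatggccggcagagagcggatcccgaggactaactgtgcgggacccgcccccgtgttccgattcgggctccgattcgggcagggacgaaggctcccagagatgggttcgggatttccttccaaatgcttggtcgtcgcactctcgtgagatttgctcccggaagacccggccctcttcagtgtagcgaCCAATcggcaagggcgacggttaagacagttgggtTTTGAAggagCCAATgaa
Cdk1, chr10:69352913-69353162, minus strand: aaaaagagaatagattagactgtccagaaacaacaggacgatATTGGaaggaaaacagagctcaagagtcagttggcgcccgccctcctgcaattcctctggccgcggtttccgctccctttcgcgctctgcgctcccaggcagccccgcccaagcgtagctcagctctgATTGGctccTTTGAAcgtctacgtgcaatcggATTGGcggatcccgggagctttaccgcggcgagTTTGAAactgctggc

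The Mki67 window held 2 matches of the homology region and 3 of the box on either strand, that of Ccnb2 1 and 3, that of Cdc20 1 and 2, and that of Cdk1 2 and 3. No match overlapped another in these 4 windows. Of all 32851 promoter entries in the table, 16% held the homology region in a window of this length, 33.8% held the box and 5.55% held both. Of 100 genes listed for mitosis, 81 matched the table with 89 entries, and 27.0% of those held both elements. For 57 listed S-phase and replication genes, 45 matched with 52 entries, and 9.62% held both. These shares describe letters in a window and not the binding of a factor.

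Mki67 was high in 7 pools and close to absent in 17, which is what the rule selected and is given without a test. In the control arm the values were 7.91 RPM (233 reads) in experiment 1 replicate 4 and 34.3 (368 reads) in experiment 2 replicate 1. In the mouse-host arm they were 21.3 in experiment 1 replicate 3, 33.3 and 17.1 in experiment 3 replicates 1 and 3, and 8.72 and 5.52 in experiment 4 replicates 2 and 3. The 4 libraries of mouse-host experiment 2 all fell in the low class. Of the 17 low pools, 8 had no Mki67 read, and the highest was 0.420 RPM (4 reads). The members nearest the thresholds were therefore at 5.52 and 0.420 RPM. Each class thus drew on both arms and on both labelled sexes.

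**Figure D1:**
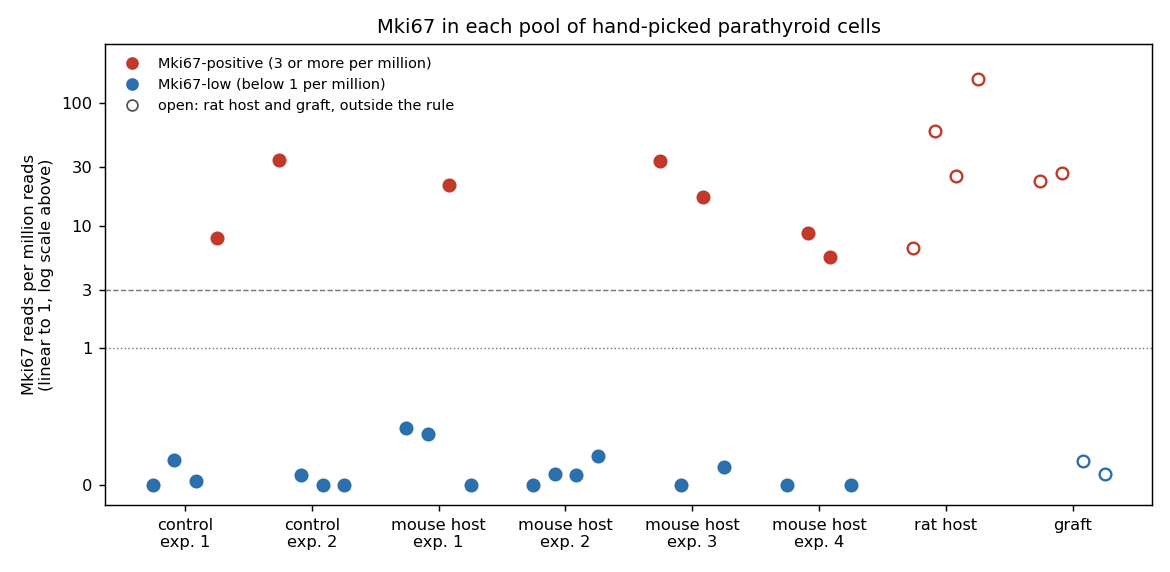
Mki67 RPM (y axis, linear to 1 and logarithmic above) in each library, grouped by experiment (x axis). Each point is a library, dashed and dotted lines mark 3 and 1 RPM, and open points are outside the rule. The 7 positive pools lie between 5.52 and 34.3 and no low pool is above 0.420.

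The name of the first class, pools with cycling cells, was checked against the other genes of the cell cycle, which the rule did not use. It held, to differing degrees, for 5 of the 7 pools. The name was least clear for mouse-host experiment 1 replicate 3, whose S-phase and mitosis sums lay inside the range of the low pools (values below). In mouse-host experiment 4 replicates 2 and 3, Mki67 was present but no more mitosis genes were detected than in low pools: 31 and 38 of the 100 had at least 3 reads, against 33 and 44 in the 2 low pools of that experiment. A few genes were higher in these 2 pools than in the low pools beside them, among them Aurka, Cdca3 and Cdkn2c (values below), and their mitosis sums of 1126 and 1183 RPM exceeded the 1032 and 822 of the low pools. In the opposite direction, the low pool mouse-host experiment 1 replicate 2 had 76 of 100 mitosis genes with at least 3 reads, while the other 16 low pools had 25 to 48. That pool had 4 Mki67 reads. The classes are therefore called Mki67-positive and Mki67-low below, and results are given with and without these 3 libraries. Because the 3 were picked by their cell-cycle genes, values without them are a description of those genes and not a test.

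The other 5 positive pools fell into different profiles. Reads were summed over the 100 mitosis genes and over the 57 S-phase genes, and a gene was counted as raised in a pool at 10 or more RPM and at least 4 times the highest low pool of the same experiment (a definition set after the values were seen). In 2 pools the mitosis genes were high and the S-phase genes were not. Control experiment 1 replicate 4 had a mitosis sum of 3920 RPM and an S-phase sum of 715, with 50 mitosis genes and 0 S-phase genes raised. Mouse-host experiment 3 replicate 1 had sums of 3809 and 679, with 57 and 0 raised. The low pools ran from 437 to 1267 in the mitosis sum and from 580 to 1656 in the S-phase sum, so both pools were about 3 times the highest low pool in the first and inside the low range in the second.

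In 2 further pools both lists were high. Control experiment 2 replicate 1 had an S-phase sum of 2374 and a mitosis sum of 2012, with 15 and 39 genes raised. Mouse-host experiment 3 replicate 3 had 2302 and 1822, with 18 and 29 raised. Mouse-host experiment 1 replicate 3 had a high S-phase sum of 1621 but a mitosis sum of 914 inside the low range, with 1 and 5 genes raised, where the reference included the low pool that itself expressed these genes (S-phase sum 1656, mitosis sum 1058). The 2 pools of mouse-host experiment 4 had S-phase sums of 679 and 674 and mitosis sums of 1126 and 1183, with 0 S-phase genes and 0 and 3 mitosis genes raised (Cdc25b, Incenp and Shcbp1 in replicate 3). Over all genes at 10 RPM or more, 1.52% to 2.39% were raised in the 7 positive pools, so the 50 and 57 raised of 100 mitosis genes stood far above that share. The 0 to 3 of experiment 4 cannot be set against it closely. The 100 listed genes include those below 10 RPM in a pool, which could not count as raised. Set against the other low pools of their experiment, low pools had 0.483% to 9.23% of genes raised. A share of raised genes was thus no trait of the positive pools, and the number of low pools compared differed. The low pool mouse-host experiment 1 replicate 2 had 7 S-phase and 23 mitosis genes raised.

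**Figure D2:**
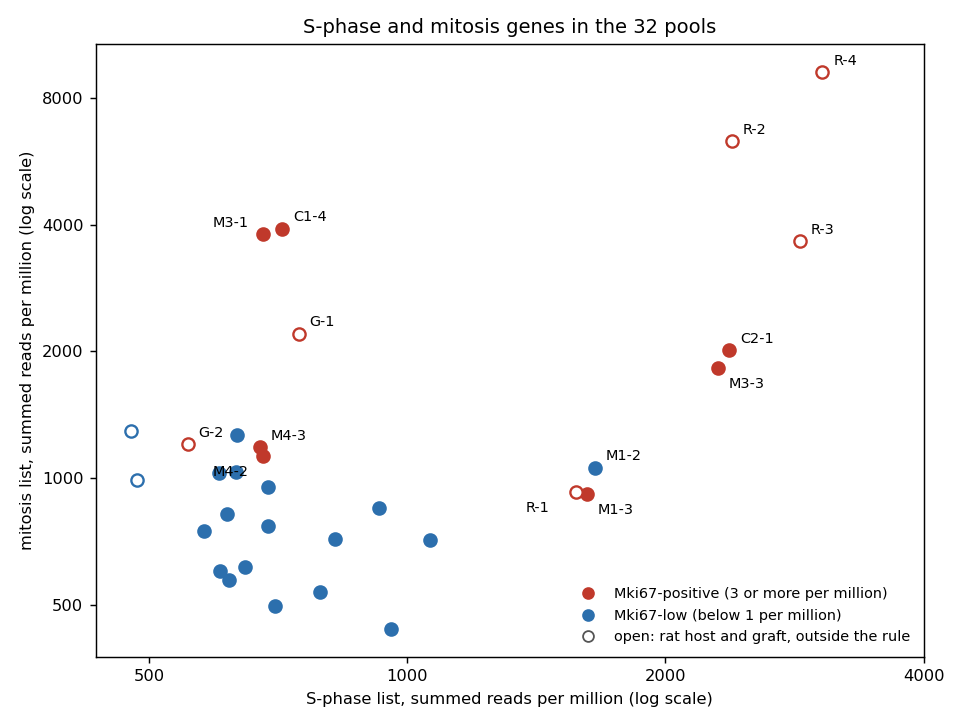
Summed RPM of the S-phase list (x axis, log scale) and the mitosis list (y axis, log scale) in the 32 libraries. C is control, M mouse host, R rat host and G graft, followed by experiment where there are several and replicate. C1-4 and M3-1 are high in mitosis only, C2-1 and M3-3 in both, and M4-2 and M4-3 lie among the low pools.

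Mitotic cyclins and their kinase showed the profiles gene by gene. Ccnb1, cyclin B1, was at 102 RPM in control experiment 1 replicate 4 and 275 in mouse-host experiment 3 replicate 1, at 4.10 in control experiment 2 replicate 1, and below 0.3 in the other 4 positive pools. The low pools had at most 7.29, in mouse-host experiment 1 replicate 2. Ccnb2 was at 150 and 95.1 in the 2 mitotic pools and at 23.8, 12.9 and 11.8 in mouse-host experiment 1 replicate 3, experiment 3 replicate 3 and control experiment 2 replicate 1. It was at 0.0899 and 0 in the positive pools of mouse-host experiment 4, and the low pools ran from 0 to 31.4. Cdk1 was highest in mouse-host experiment 3 replicate 1 (84.9) and was low, at 3.46, in control experiment 1 replicate 4, although that pool had the highest Ccnb2. Cdc20 reached 409 and 466 in the same 2 mitotic pools and 16.4 to 30.3 in the next 3, where the low pools ran from 0 to 28.5.

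Genes of the spindle and of chromosome structure had the same order of pools with some exceptions. Top2a, the topoisomerase that untangles sister chromatids, was highest in the 2 pools that also had S-phase genes (75.3 and 73.5 RPM), and was at 17.2 and 11.9 in the 2 mitotic pools. Kif20a, a kinesin of cytokinesis, was at 83.0, 75.7, 36.5, 20.9 and 20.6 in the 5 pools with other cell-cycle genes, and at most 12.2 in a low pool. It was at 0 and 0.210 in mouse-host experiment 4. Kif20a was raised in 5 positive pools, and 12 further genes were raised in 4: Birc5, Bub1b, Ccna2, Ccnb2, Cdca2, Cdca3, Hmmr, Kif22, Nek2, Nuf2, Pbk and Top2a. All 13 were on the mitosis list. Among all genes, 832 were raised in at least 1 positive pool, of which 77 were mitosis genes, and 183 in at least 2, of which 60 were. Genes that were raised in a single pool were thus mostly not of the cell cycle.

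S-phase genes separated the pools differently. Cdc6, which loads the replicative helicase, was at 35.2 RPM in control experiment 2 replicate 1 and 13.5 in mouse-host experiment 3 replicate 3 and at 0 in the other 5 positive pools. A single low pool exceeded 0.1, the pool mouse-host experiment 1 replicate 2, at 9.82. Mcm5, a subunit of that helicase, was at 57.1, 53.6 and 50.8 in mouse-host experiment 1 replicate 3, control experiment 2 replicate 1 and mouse-host experiment 3 replicate 3, and at 5.10 or less in the other 4. The highest Mcm5 value of the 24 pools was in the low class (93.1, mouse-host experiment 1 replicate 2), so the classes overlapped. Rrm2, the regulated subunit of ribonucleotide reductase, was at 82.4, 25.6 and 20.0 in the same 3 pools and at 0.0339 and 0.152 in the 2 mitotic pools. Ccne1, cyclin E1, was at 57.9, 28.5 and 24.2 in those 3, with low pools from 0 to 25.5.

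**Figure D3:**
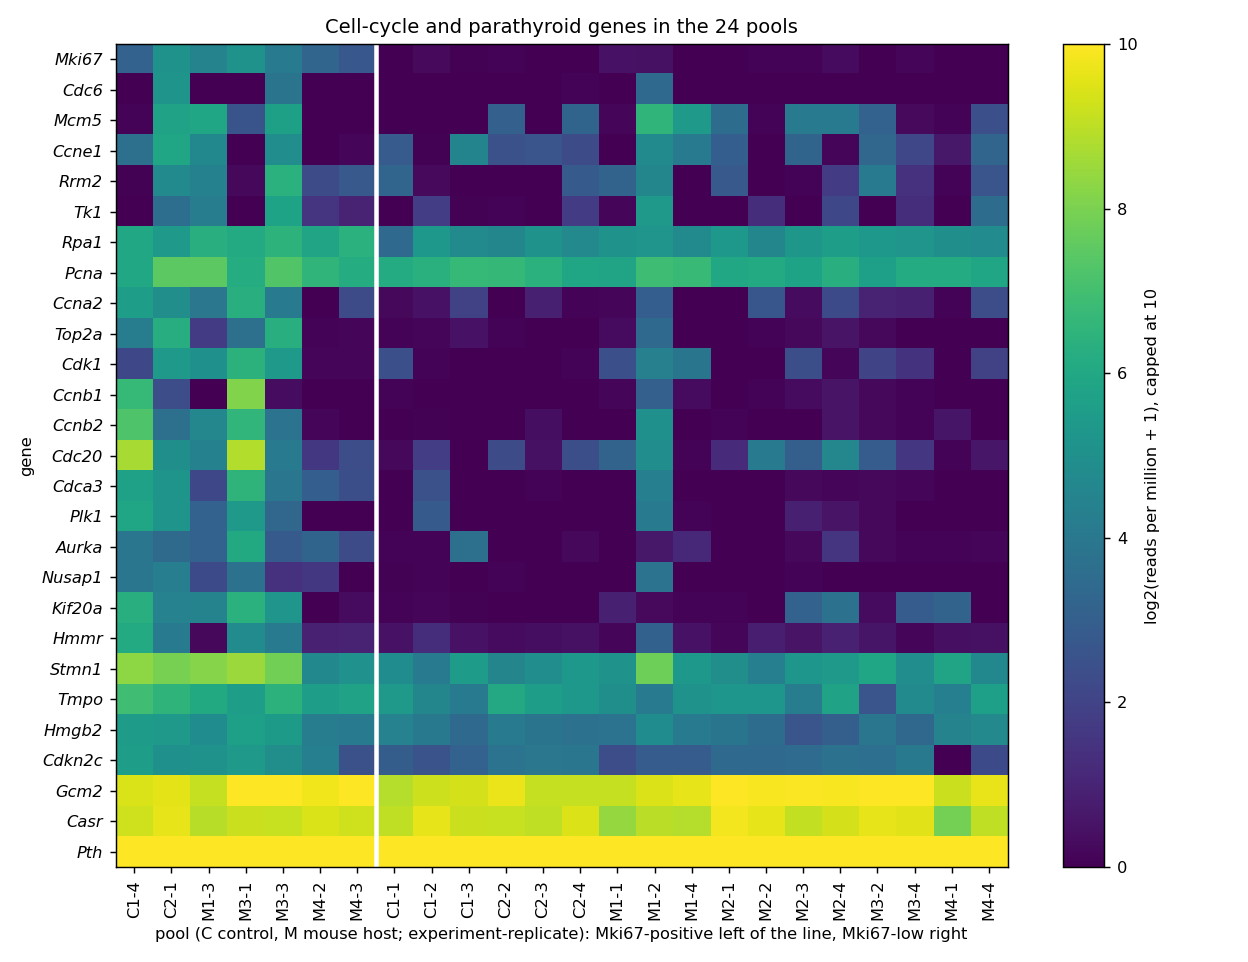
Log2(RPM + 1), capped at 10, for 27 genes (rows) in the 24 pools (columns), with Mki67-positive pools left of the white line. Kif20a is at 20.6 or more in 5 positive pools and dark in M4-2 and M4-3, Ccnb1 is brightest in C1-4 and M3-1 (102 and 275), and Pth, Casr and Gcm2 are bright in every pool.

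All genes other than Mki67 were then tested between the 7 positive and 17 low pools with experiment as a block (edgeR quasi-likelihood test, Benjamini-Hochberg adjustment, called at an adjusted p below 0.05). With the block, the low pools of mouse-host experiment 2, which held no positive pool, could inform the spread but not the difference. The question was which genes accompany Mki67 when sex, age and arm are held constant within experiments. No gene was called: 0 of 11978 (0.00%), with the lowest adjusted p at 0.198. At an unadjusted p below 0.05 there were 532 genes (4.44%), 280 higher (2.34%) and 252 lower (2.10%) in positive pools. Other tools called genes on the same counts: DESeq2 47 (0.406% of genes with an adjusted p), 28 higher (0.242%) and 19 lower (0.164%), and limma voom 23 higher (0.192%) and 0 lower (0.00%). Of the 23 genes, 16 were on the mitosis list. Without a filter on low counts edgeR called 17 higher genes (0.0894% of 19026), 13 of them mitosis genes. Leaving out mouse-host experiment 4 gave 6 calls (0.0492%), all higher: Cdca2, Cdkn2c, Cenpe, Kif20a, Melk and Stmn1. Between 2 and 9 genes were called by voom with experiment as a random effect (9, 0.0751%), by edgeR without the block (4, 0.0334%), by limma-trend on log2(TPM + 1) (4, 0.0334%), over all 32 libraries (2, 0.0175%) and without mouse-host experiment 1 (2, 0.0167%). Without the 3 libraries whose cell-cycle genes went against their class there were 21 (0.171%), of which 19 were mitosis genes.

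Mitosis genes made up much of the upper end. Of the 100 listed genes 59 passed the filter on low counts, many of them through the positive pools, so the counts that follow are no support for the list. Of the 59, 57 had a higher fitted value in positive pools, 34 at an unadjusted p below 0.05. Among them edgeR with the block called none, where limma voom called 16 and DESeq2 6. Without a filter edgeR called 13 of the 100 listed genes, a count not limited to the 59. Their median log2 fold change was 3.49, beside -0.0017 over all genes tested. In most of these genes the low median was at or near 0 reads, so the size of the fitted folds depends on the prior count. Cdca3, which promotes entry into mitosis, ran from 3.55 through a median of 14.3 to 90.8 RPM in positive pools and from 0 through 0 to 18.9 in low pools (log2 fold change 7.56, SE 1.67, edgeR adjusted p = 0.273). It lay above every low pool of its experiment in 6 of 7 pools, where 130 of 11978 genes tested (1.085%) did so in at least 6. Cdc20 had a log2 fold change of 5.44 (SE 1.20, edgeR adjusted p = 0.273), also with 6 of 7.

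Further mitosis genes with low unadjusted p were a spindle protein, a condensin subunit and a kinase. Nusap1, which binds spindle microtubules, ran from 0 through 3.72 to 18.5 RPM in positive pools and from 0 through 0 to 12.9 in low pools (log2 fold change 8.05, SE 1.61, edgeR adjusted p = 0.198). Ncapg, a subunit of condensin, had values from 0 through 2.60 to 9.93 and from 0 through 0 to 5.79 (log2 fold change 7.51, SE 1.55, edgeR adjusted p = 0.207). Both overlapped between classes: the highest low pool was mouse-host experiment 1 replicate 2, and 1 positive pool for Ncapg and 1 for Nusap1 were at 0. Aurka, the centrosomal Aurora kinase, was above every low pool of its experiment in all 7 positive pools, at 3.91 to 65.8 with a low maximum of 11.9 (log2 fold change 6.09, SE 1.41, edgeR adjusted p = 0.287). It was at 8.26 and 3.91 in the positive pools of mouse-host experiment 4, where the low pools were at 0.0803 and 0.0873. Cdca3 was at 6.84 and 4.31 in those pools, with 0 in both low pools.

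Stmn1, a microtubule-destabilising protein made in dividing cells, was the gene called under most alternatives. Its RPM values were 311, 248, 286, 359 and 231 in the 5 positive pools with other cell-cycle genes and 24.2 and 32.1 in mouse-host experiment 4 replicates 2 and 3. The low pools were at 16.3 to 59.7 apart from 219 in mouse-host experiment 1 replicate 2. The 3 libraries that went against their class did so for Stmn1 as well. Its log2 fold change was 2.10 (SE 0.45, edgeR adjusted p = 0.241), and 2.74 without mouse-host experiment 4 (edgeR adjusted p = 0.00415). The second fit drops the 2 positive pools in which Stmn1 was low, so it is a description. Among the 25 tested genes of the list for chromatin and high-mobility-group proteins, to which it was assigned, 6 were higher and 0 lower at an unadjusted p below 0.05 (2.34% and 2.10% over all genes tested). They were Stmn1, Tmpo (a lamina-associated protein; log2 fold change 1.37, SE 0.32), Hmgb2 (0.99, SE 0.33), Tubb5 (0.92, SE 0.33), H2afz (0.43, SE 0.15) and Tuba1b (0.42, SE 0.12), and edgeR with the block called none. Stmn1 and Tmpo were called by DESeq2, by both voom fits and by edgeR without a filter, and H2afz without the 3 libraries that went against their class. The median log2 fold change of that list was 0.19.

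S-phase genes differed less. Of 57 listed genes 49 were tested, 46 of these had a higher fitted value in positive pools, 7 at an unadjusted p below 0.05, and their median log2 fold change was 0.86. Over all genes tested, 5967 of 11978 had a higher fitted value, and 2.34% were higher at that p. The filter on low counts could pass a gene through the positive pools alone, so these counts are no support for the list. Rrm1, the large subunit of ribonucleotide reductase, ran from 26.0 through 66.1 to 230 RPM in positive pools and from 19.8 through 41.6 to 97.6 in low pools (log2 fold change 1.12, SE 0.33, edgeR adjusted p = 0.758). Pcna, the sliding clamp of DNA polymerases, ran from 61.2 through 92.9 to 178 and from 48.6 through 69.9 to 118 (0.58, SE 0.20, edgeR adjusted p = 0.999). Rrm1 and Pcna overlapped between classes and were each above all low pools of their experiment in 6 of 7 positive pools. Of all genes tested, 1.085% were above in at least 6. Pole, of DNA polymerase epsilon, had a log2 fold change of 3.92 (SE 1.42). Of 28 listed histone genes 13 were tested, and 1 of them, Hist1h2ap, had an unadjusted p below 0.05 (0.79, SE 0.35).

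**Figure D4:**
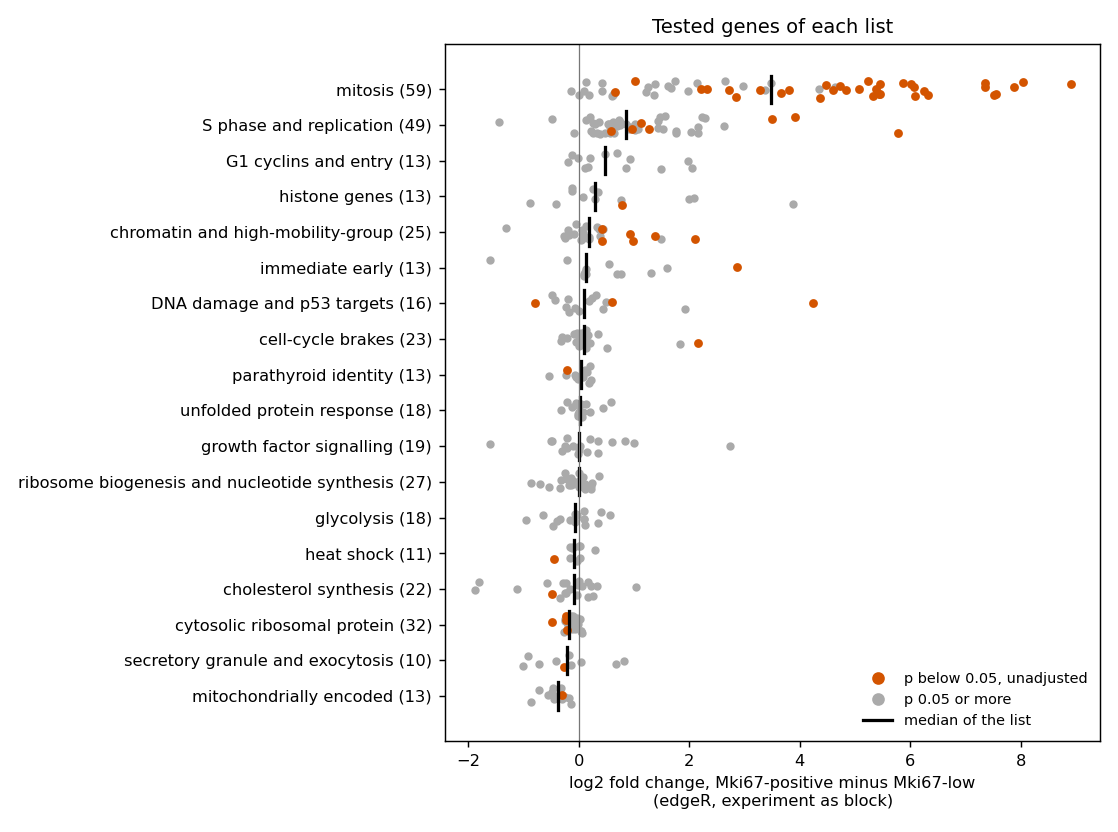
Log2 fold change between Mki67-positive and Mki67-low pools (x axis) for the tested genes of each list (rows, number tested in brackets). Orange points had an unadjusted p below 0.05, no point was called after adjustment, and black bars are list medians, which run from -0.38 for mitochondrially encoded genes to 3.49 for mitosis.

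Regulators upstream of S phase gave no call and few low p-values. Of 17 listed genes of G1 and cell-cycle entry 13 were tested and none had an unadjusted p below 0.05. Ccnd1, Ccnd2 and Ccnd3, the D-type cyclins, had log2 fold changes of 0.47 (SE 0.41), -0.20 (SE 0.17) and 0.11 (SE 0.12), and their kinase gene Cdk4 had -0.01 (SE 0.10). E2f1, a transcription factor of S-phase genes, had 0.85 (SE 0.68). Myc, Mycn and Mycl had a median of 0 RPM in both classes and did not pass the filter. Of 24 measured brakes of the cell cycle 23 were tested, and Cdkn2c alone had an unadjusted p below 0.05.

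Cdkn2c encodes an inhibitor of the kinases that pair with D-type cyclins. Its RPM values were 48.1, 31.5, 34.1, 40.3, 30.1, 19.1 and 4.52 in the 7 positive pools, in the order of their naming above, and 0 to 15.6 with a median of 9.66 in the low pools. Each positive pool was above every low pool of its experiment, although the value in mouse-host experiment 4 replicate 3 was inside the range of the low class as a whole. The log2 fold change was 2.15 (SE 0.48, edgeR adjusted p = 0.287). It was called by DESeq2 and limma voom, and by edgeR without mouse-host experiment 4 (2.01, edgeR adjusted p = 0.0181), a fit with the limit given above. Other inhibitors had log2 fold changes near 0 with wide error: Cdkn1a 0.11 (SE 1.41), Cdkn1b 0.13 (SE 1.04) and Cdkn1c 0.20 (SE 1.13). Cdkn1a had a median of 0.260 RPM and a maximum of 15.02 in positive pools and 0.273 and 79.7 in low pools. Among tumour suppressors of the gland, Men1, which encodes menin, had 0.52 (SE 0.28), Cdc73 0.02 (SE 0.53) and Rb1 0.01 (SE 0.56). None of these passed the test.

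Cdkn2c and Aurka were among 13 genes (0.109% of those tested) for which all 7 positive pools exceeded every low pool of their experiment. The others were Cep85, Dync2h1, Gm46223, Gmpr2, Hjurp, Nedd4, Nudt9, Olfr1012, Reep4, Rpa1 and Usf1, named after their values were seen. Rpa1, the large subunit of the protein that coats single-stranded DNA, was at 41.5 to 86.4 RPM with a median of 68.3 in positive pools and at 9.78 to 47.5 with a median of 33.5 in low pools (log2 fold change 1.07, SE 0.21, edgeR adjusted p = 0.198). It was at 56.9 and 82.3 in the positive pools of mouse-host experiment 4, beside 30.3 and 27.4 in the low pools. Cep85, a centrosomal protein, ran from 90.4 to 288 and from 36.4 to 136 (0.82, SE 0.16, edgeR adjusted p = 0.198). Hjurp, the chaperone of the centromeric histone, ran from 43.6 to 96.4 and from 10.2 to 66.2 (1.01, SE 0.26). DESeq2 and limma voom called Rpa1, Cep85 and Hjurp. Ciao2a, Dusp3 and Itm2b were below every low pool of the experiment in all 7, as the only 3 of 11978 genes tested (0.025%). In at least 5 of 7 pools 644 genes were above (5.38%), which included 26 of the 59 tested mitosis genes and 6 of the 49 S-phase genes. Listed genes could pass the filter on low counts through the positive pools alone, so these counts are no support for either list.

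**Figure D5:**
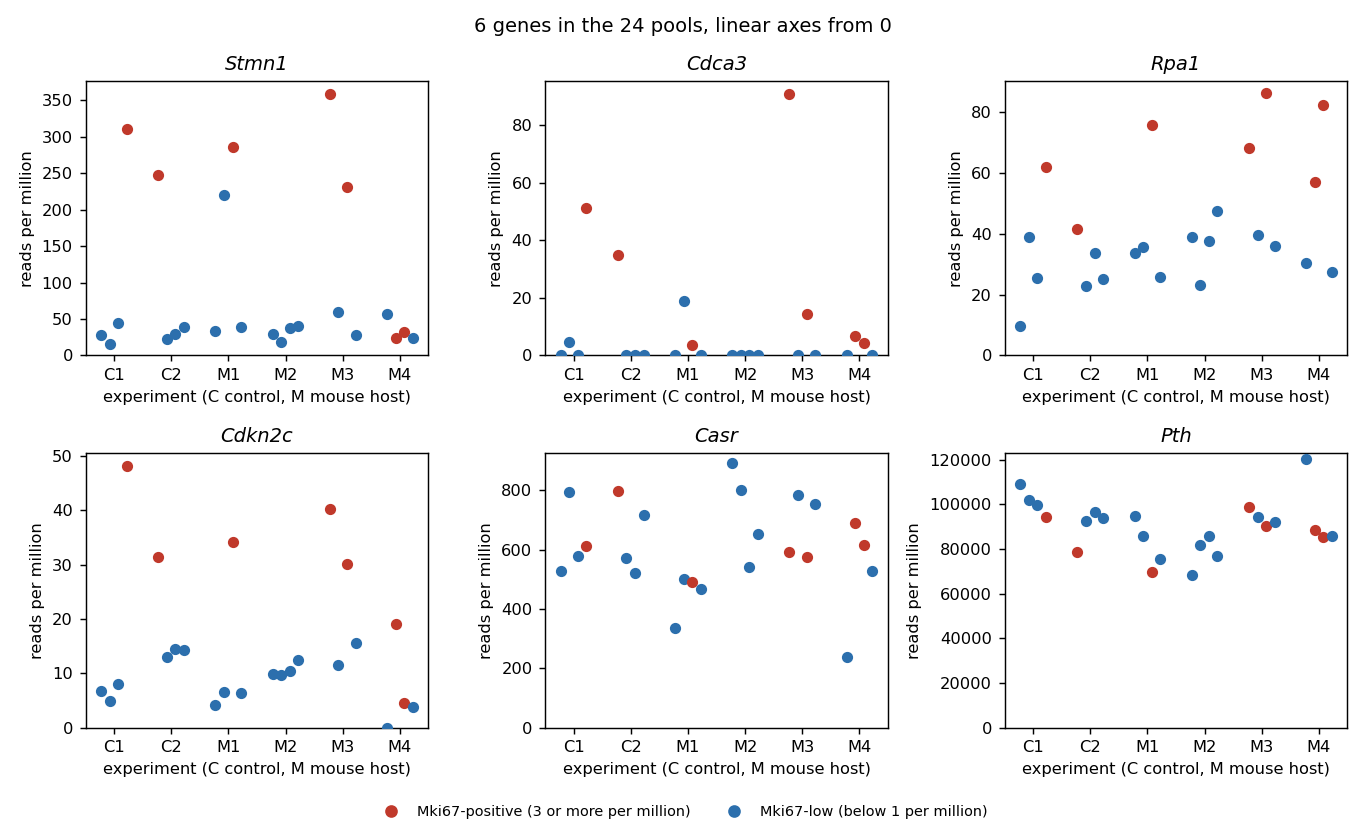
RPM (y axes, linear from 0) of Stmn1, Cdca3, Rpa1, Cdkn2c, Casr and Pth in the 24 pools by experiment (x axes; C control, M mouse host), with Mki67-positive pools in red and Mki67-low pools in blue. Rpa1 and Cdkn2c are higher in positive pools within every experiment that has both classes, and Casr shows no such order.

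Parathyroid genes were at similar levels in both classes. Pth and Chga, the granule protein chromogranin A, together with Casr, Gcm2 and Gata3 were present in every pool, so the labelled cell type held in all 24. Of 15 listed identity genes 13 were tested, with 7 fitted values higher and 6 lower, a median log2 fold change of 0.05, and 1 at an unadjusted p below 0.05. That gene was Pth, at 69817 to 98720 RPM with a median of 88564 in positive pools and at 68490 to 120351 with a median of 92480 in low pools (log2 fold change -0.22, SE 0.08, edgeR adjusted p = 0.999). Its classes overlapped, and 5 of 7 positive pools were below every low pool of their experiment, a count for which the share over all genes is not given here. Chga had -0.04 (SE 0.05). Casr, the calcium-sensing receptor, ran from 492 to 797 in positive and from 239 to 893 in low pools (0.14, SE 0.15), Gcm2 had 0.08 (SE 0.11), Gata3 0.05 (SE 0.10), Vdr, the vitamin D receptor, -0.01 (SE 0.11) and Kl, the FGF23 co-receptor klotho, 0.12 (SE 0.14). The SE of each of these genes was 0.15 or less on the log2 scale, so a 2-fold difference between whole pools would have lain well outside it. A difference confined to some of the 10 to 20 cells of a pool could be much smaller in the pool. These values therefore do not show the levels in the cycling cells.

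Markers of other cell types did not separate the classes. The summed fibroblast markers were 207 to 502 RPM in positive and 143 to 3443 in low pools, where the highest were control experiment 2 replicate 3 (3443) and mouse-host experiment 2 replicate 4 (2912). Outside those 2 pools the sum was mostly a single gene, Fbln1. Col3a1, another of the markers, was at 665 and 1168 RPM in those 2 pools and at most 7.73 in the other pools under the rule. Leaving out those 2 pools gave 0 calls (0.00%), with 469 genes at an unadjusted p below 0.05 (3.97%). Thymocyte markers, which stand for a cycling cell type near the gland, summed to at most 2.34 RPM in a positive pool and 1.13 in a low pool, with 2 of the 6 at 0 in all pools. Markers of pluripotent cells, a cycling state from which the donor cells came, summed to at most 1.73 and 1.75, with 4 of 9 at 0 in all pools. Macrophage markers were at most 8.75 in positive and 65.5 in low pools, and B-cell and erythroid markers at most 3.40 in any pool.

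No gene of the growth, housekeeping and stress lists was called by edgeR with the block. Of 32 tested ribosomal protein genes 28 had lower fitted values in positive pools, 4 at an unadjusted p below 0.05, with a median log2 fold change of -0.17. All 13 mitochondrially encoded genes were lower, 1 at an unadjusted p below 0.05 (mt-Co2, -0.31, SE 0.14), with a median of -0.38. Genes of ribosome biogenesis and nucleotide synthesis had 15 higher and 12 lower with none at that p, and glycolysis 7 higher and 11 lower with none. Of the 13 tested immediate early genes Nr4a1 had the lowest p (2.87, SE 1.11, edgeR adjusted p = 0.999), with 6 of 7 positive pools above the low pools of their experiment (1.085% of all genes tested had at least 6). Among targets of p53, Plk3 (4.24, SE 1.53) and Xpc (0.61, SE 0.27) were higher and Aen (-0.79, SE 0.35) lower at an unadjusted p below 0.05. DESeq2 called Plk3 (DESeq2 adjusted p = 0.0303), whose classes overlapped at 0 to 7.53 and 0 to 15.4 RPM. Hspe1, a mitochondrial chaperonin, had -0.44 (SE 0.15) and was below the low pools in 6 of 7, a count for which the share over all genes is not given here.

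The arms were compared by the interaction of class with arm. It called 2 of 11978 genes (0.0167%), both because positive pools were low in the control arm and not in the mouse-host arm. Dbndd2 was at 0 and 0.273 RPM in the 2 positive control pools, at 12.3 to 29.2 in the 6 low control pools, and at 7.99 to 24.05 and 7.26 to 32.4 in positive and low mouse-host pools (difference of log2 fold changes 7.71, SE 1.11, edgeR adjusted p = 0.00788). Zfp955a was at 0 and 0.0331 in the positive control pools, at 2.37 to 23.3 in the low control pools, and at 14.8 to 19.5 and 6.26 to 34.1 in the mouse-host arm (8.78, SE 1.47, edgeR adjusted p = 0.0348). In both genes the mouse-host classes overlapped. Only 2 control pools were positive, and the number of calls ran from 1 to 8 as each library was left out in turn, with 8 without control experiment 2 replicate 1. Within the arms alone, the control pools gave 4 calls (0.0312%; Ccnb1, Hmmr, Kif20a and Stmn1, all higher) and the mouse-host pools 0 (0.00%, with 360 genes at an unadjusted p below 0.05, 3.03%).

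The 8 libraries outside the rule show the same genes in pools that the rule did not use. All 4 rat-host libraries were above 3 RPM of Mki67, at 6.61, 59.1, 25.5 and 157, and so could not be compared within their experiment. Their mitosis sums were 926, 6331, 3654 and 9247 RPM and their S-phase sums 1575, 2391, 2868 and 3047, so 3 of the 4 exceeded every positive pool in the S-phase sum. Stmn1 was at 191, 552, 377 and 724 and Cdkn2c at 11.1, 62.9, 28.7 and 55.8 in the same order. Host species, age and experiment differ together between these and the other libraries, and cannot be told apart.

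In the graft experiment, 2 libraries were positive (22.8 and 26.7 RPM of Mki67) and 2 low (0.173 and 0.0783). Their mitosis sums were 2204 and 1204 in the positive and 990 and 1297 in the low libraries, so only replicate 1 stood apart. Of the mitosis genes 65 and 39 had at least 3 reads in the positive libraries and 26 in each low one. Stmn1 was at 363 and 288 against 12.4 and 50.1, Cdca3 at 73.9 and 30.6 against 0.173 and 1.17, and Ccnb2 at 33.1 and 53.9 against 0.777 and 0.0783. These 3 genes did not overlap between the graft classes, as was so for 2155 of 10812 genes (19.9%) with both positive libraries above both low ones, so this separation is no result about the 3. Rpa1 was also higher, at 28.0 and 30.8 against 0.432 and 1.25. Cdkn2c overlapped (15.5 and 5.05 against 15.5 and 0), and so did Aurka (0 and 3.21 against 0 and 0). A test of 2 against 2 graft libraries called 0 of 10812 genes (0.00%, edgeR), with 483 at an unadjusted p below 0.05 (4.47%).

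Measures of the whole library were compared by an exact two-sided permutation of class labels within experiments (2304 relabelings, n = 7 and 17 libraries, adjusted over 6 measures). The number of reads differed by -1337970 in positive pools after adjustment for experiment (exact permutation p = 0.0182, adjusted p = 0.0547). The share of reads on Pth differed by -1.06 percentage points (exact permutation p = 0.0156, adjusted p = 0.0547). The share of the 10 highest genes differed by -1.25 points (exact permutation p = 0.0538, adjusted p = 0.108), the mitochondrial share by -0.32 points (adjusted p = 0.253 by the same permutation), the Chga share by -0.03 points (adjusted p = 0.954 by permutation) and the number of genes with a read by 77.4 (adjusted p = 0.767 by permutation). None passed the threshold after adjustment. The part of depth and of the Pth share in the gene results was not tested.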

How the data were processed

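Per the submitters' processing notes, the authors used Salmon to make expected counts and TPM per transcript and worked with build GRCm39. Neither Salmon's version nor its transcript set is given in the sources used here. The cDNA kit was SMART-Seq HT, per the labels' protocols. The deposited expected counts were summed to 35458 genes through GENCODE release M21 (names only, since it describes GRCm38), rounded to whole numbers and tested with edgeR 4.0.16 in R 4.3.3 (quasi-likelihood, TMM scaling, default expression filter, experiment as a block). The 1062 transcripts without a match held 0.493% of reads and entered only the library totals. The deposited TPM values served 1 alternative, limma-trend (limma 3.58.1) on log2(TPM + 1). DESeq2 1.42.0 and limma voom were other alternatives. RPM is a gene's expected count over all deposited reads of the library. No molecular identifiers were used.

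In all 48 pairs of libraries within experiments, chi-square over genes was at least 41.0 times its degrees of freedom, so no pair was the same library sequenced again. Each library was entered as a sample. The check cannot show whether libraries came from separate animals. The pools, 18 pathway lists, 17 lists of cell-type markers and tests were chosen with earlier results of these data known. Of the listed symbols 1 had no match. Named by rule were up to 5 genes of lowest p per pathway list, all genes of the parathyroid, G1 and brake lists, and 12 cyclins and mitotic kinases or partners. Of the genes this rule names, 3 are not reported here singly. Other named genes were chosen after their values were seen. Scripts were tested on simulated data.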

Additional observations from a re-analysis of the deposited data

Results flagged for a closer look

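Within experiments of 4 libraries, the highest or lowest library was set against the others by the gap to its nearest neighbour relative to the whole range. This was done for 9 measures in 8 experiments, 72 tests in all, of which chance alone would mark about 1 in 20. In 10 cases a library stood apart. For Mki67 these were control experiment 1 replicate 4 (7.91 RPM), mouse-host experiment 1 replicate 3 (21.3) and control experiment 2 replicate 1 (34.3), which is what the rule selected. For the mitosis sum they were control experiment 1 replicate 4 (3920 RPM) and control experiment 2 replicate 1 (2012), and for the S-phase sum control experiment 2 replicate 1 (2374).

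The other 4 cases concerned shares of reads. Mouse-host experiment 1 replicate 1 stood apart in the mitochondrial share (2.64%), mouse-host experiment 4 replicate 1 in the Pth share (12.0%), control experiment 2 replicate 2 in the Chga share (23.4%) and mouse-host experiment 1 replicate 4 in the share of the 10 highest genes (31.3%). All 4 libraries are Mki67-low pools.

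For Dbndd2 and Zfp955a the difference between Mki67 classes was not the same in the control and mouse-host arms, with differences of log2 fold changes of 7.71 and 8.78 (edgeR interaction, adjusted p = 0.00788 and 0.0348). Outside the compared libraries, rat-host replicate 4 had 157 RPM of Mki67, above every control library.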

How the results depend on the processing

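The comparison of all genes called 0 genes and its calls changed with the model and the libraries. Calls were 47 with DESeq2, 23 with limma voom, 9 with voom and experiment as a random effect, 4 without the experiment block, 17 without a filter on low counts, 4 with limma-trend on log2(TPM + 1), 4 in control libraries only and 2 over all 32 libraries. They were 2 without mouse-host experiment 1, 6 without mouse-host experiment 4 and 0 without each other experiment. Chosen after seeing the data, they were 21 without the 3 libraries whose cell-cycle genes went against their class. Leaving out each library in turn gave 0 to 3 calls: 2 without mouse-host experiment 1 replicate 2, 3 without experiment 4 replicate 1 and 1 without experiment 4 replicate 2. The cause of these differences was not tested. Other scalings, a filter at 5 CPM, counts summed per experiment, the slope on Mki67 and a threshold of 10 RPM (chosen after seeing the data) gave 0 calls. Moving the thresholds within 1 to 5 RPM changed no pool's class. The interaction of class with arm called 1 to 8 genes (main 2) as libraries were left out. Of the 6 library measures, 0 to 3 passed after adjustment as libraries were left out, with 3 without mouse-host experiment 3 replicate 1.

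Replicate numbers did not pair the libraries: over 60 pairs with the same number in different experiments, correlations of deviations ran from -0.059 to 0.054. With the replicate block added, 0 genes were called and 666 had an unadjusted p below 0.05.

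For 127 named genes under all alternatives, 6160 of 6536 values kept direction and side of the threshold, 47 gained a call, and 59 genes kept their sign throughout. Signs turned with an unadjusted p below 0.05 on either side in 6 cases. In graft libraries only, the log2 fold change was 0.26 for Aen, 0.16 for Cpe, 0.41 for Msmo1, 0.0659 for Rps27a and 0.18 for mt-Co2, and without the experiment block it was -0.23 for Plk3.

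Genes of few reads limit the comparison: for most mitosis genes the low median was at or near 0 reads. Only 7 pools were positive, and 5 of the 6 experiments held both classes. Counting a gene as detected at 1 or 10 reads in place of 3 left 4 positive pools with more mitosis genes detected than every low pool of their experiment.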

Other observations

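Of the genes on no list, several had low unadjusted p-values and are given as values, named after these were seen. Zgrf1, a helicase of DNA repair, ran from 0 through a median of 7.44 to 20.6 RPM in Mki67-positive pools and from 0 through 0 to 12.7 in Mki67-low pools (log2 fold change 7.03, SE 1.60, edgeR adjusted p = 0.287). Gas2l3, which links microtubules and actin, ran from 0.795 through 2.33 to 22.4 and from 0.351 through 0.697 to 2.21 (3.02, SE 0.79, edgeR adjusted p = 0.547). Tcf4, a transcription factor, ran from 63.7 through 83.7 to 127 and from 41.2 through 66.6 to 106 (0.60, SE 0.15, edgeR adjusted p = 0.360). On the lower side, Scn8a, a sodium channel, was at 0 to 0.0827 in positive pools and at 0 through 1.79 to 6.62 in low pools (-6.22, SE 1.497, edgeR adjusted p = 0.386), and Ciao2a, of iron-sulfur protein assembly, ran from 27.1 through 36.1 to 47.9 and from 26.3 through 52.1 to 71.4 (-0.69, SE 0.18, edgeR adjusted p = 0.547). The classes overlapped in all 5 genes, and edgeR with the block called none. DESeq2 called Gas2l3, Tcf4, Scn8a and Ciao2a, edgeR without the block Gas2l3 and edgeR without a filter Zgrf1.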
